A study of Mus musculus with 67 samples.

Results

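The 6 Iroquois genes of the mouse lie in 2 genomic clusters, and the accessible chromatin regions annotated to them were followed here through the specification of ventral neural tube progenitors. A region (element) was counted as Iroquois when the deposited peak annotation gave Irx1, Irx2, Irx3, Irx4, Irx5 or Irx6 as its gene, joined to the accessibility values on the peak identifier. This gave 117 of the 111638 elements with values, while 25 of the 142 annotated Iroquois peaks carried none. The cluster on chromosome 13 held 41 of them (26 at Irx1, 7 at Irx2 and 8 at Irx4), and the cluster on chromosome 8 held 76 (52 at Irx3, 10 at Irx5 and 14 at Irx6). In mm10 coordinates the first set ran from chr13:71539461 to 73287068 and the second from chr8:91559813 to 92743915. An element is named below by its gene and the distance of its centre from that gene's transcriptional start site (TSS) in kb, with minus for upstream, so that Irx3-28.4 lay 28.4 kb upstream of Irx3. The annotation assigns a region to a nearby start site, which does not show which gene it acts on. Of the 117 elements, 40 had a mean above 100 normalized counts (reads divided by the size factor of the library) and were tested, 11 in the Irx1/2/4 cluster and 29 in the Irx3/5/6 cluster. The other 77 had means of 3.53 to 91.9 and are described after the tested ones.

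Iroquois proteins are homeodomain transcription factors of the TALE class, and the paralogous clusters that encode them are separated by wide gene-poor intervals. In the ventral neural tube, IRX3 is a class I protein: it is repressed by Sonic hedgehog (Shh) signaling and marks progenitors dorsal to the motor neuron domain. IRX3 and OLIG2 repress each other, and this pair of factors sets the boundary between the p2 and pMN domains. IRX5 is the close neighbour of IRX3 in its cluster, and Irx1, Irx2, Irx4 and Irx6 are best known from other tissues such as heart, limb, lung and retina.

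The libraries came from HM1 mouse embryonic stem (ES) cells, so all groups share 1 unmodified line, and each replicate was an independent differentiation. Cells were grown with bFGF from day 0 to 3, LGK from day 0 to 2, and CHIR, SB and DMH1 from day 2 to 3, which gave neuromesodermal progenitors (NMPs) on day 3, and from day 3 all neural cultures received 100 nM retinoic acid and SAG, an agonist of the Shh transducer Smoothened. After fixing and transposition, progenitors were stained for intracellular transcription factors and sorted by CaTS-ATAC on days 4, 5 and 6 as SOX2-positive p0-1 cells (PAX6+ NKX6.1-, from 0 and 10 nM SAG), p2 cells (NKX6.1+ PAX6+, from 10 and 100 nM), pMN cells (OLIG2+, from 100 and 500 nM) or p3 cells (NKX2.2+ OLIG2-, from 100 and 500 nM). There were 3 NMP libraries. On day 4 there were 6 of p0-1, 6 of p2, 6 of pMN and 5 of p3, on day 5 there were 6, 6, 5 and 5, and on day 6 there were 5, 6, 4 and 4. In sorted bulk cells, a lower share of cells with an open element and a less open element in every cell cannot be told apart.

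Reads in elements ran from 9298160 to 29985325 per library (median 20254011), and p3 at 100 nM on day 4 was the shallowest condition. Replicates correlated at r of 0.936 to 0.988 over 59 pairs. The elements nearest the marker genes followed the labels for Cdx2 (mean 3686 in NMP against 264 to 702 later), for Olig2 on day 6 (2325 in pMN against 408 to 1005 in the other types) and for Nkx6-1 on day 6 (1431 in p0-1 against 2431 to 2586). No element with values was annotated to Nkx2-2, so the factor that defined the p3 gate could not be checked. Elements of markers of the floor plate, the domain ventral to p3, were higher in p3 than in the other types on day 6. The Foxa2 element had a mean of 1662 in p3 against 261 to 307 in the other types. The Shh element had 280 against 67.4 to 72.9. Both were also open in NMP cells, with means of 1494 and 275, so their accessibility was not particular to floor plate cells. The paper assigns FOXA2 to the p3 program and reports little floor plate marker expression under these culture conditions. Whether the p3 libraries held floor plate cells was not tested.

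The Iroquois elements were far from genes: 82.1% were intergenic, against 44.2% of all elements, and their median distance to the TSS was 108 kb against 32.6 kb. In the RefSeq annotation of GRCm38.p6 (the same assembly as mm10), 77 of the 117 lay in no gene body. The introns of Fto, which encodes an RNA demethylase and is transcribed through the flank of the Irx3/5/6 cluster, held 10, of which 1 was tested (Irx3+225.4). The long non-coding gene Irx3os, which starts beside Irx3, held another 10, of which 6 were tested. The gene bodies were short against the span of the clusters, for example chr8:91798511-91801654 on the minus strand for Irx3, chr8:92357796-92361456 on the plus strand for Irx5 and chr13:71958232-71963723 on the minus strand for Irx1.

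The sequences of 7 intergenic or intronic elements are shown because the differences described below turn on them: Irx5+9.2 (chr8:92366858-92367157) and Irx3+7.6 (chr8:91793923-91794222) were low in p3, Irx3+225.4 (chr8:91576085-91576384) was high in p3, Irx3-28.4 (chr8:91829867-91830166) and Irx3-65.6 (chr8:91867102-91867401) ran in opposite directions from p0-1 to pMN, Irx3-195.5 (chr8:91997000-91997299) opened late and differed between p0-1 and p2, and Irx2+84.2 (chr13:72712858-72713157) was a tested element of the Irx1/2/4 cluster that opened from almost no reads. Each line holds the central 300 bases on the plus strand of mm10, read from the RefSeq copy of that assembly, with the matches of 8 motifs in capitals.
Irx5+9.2: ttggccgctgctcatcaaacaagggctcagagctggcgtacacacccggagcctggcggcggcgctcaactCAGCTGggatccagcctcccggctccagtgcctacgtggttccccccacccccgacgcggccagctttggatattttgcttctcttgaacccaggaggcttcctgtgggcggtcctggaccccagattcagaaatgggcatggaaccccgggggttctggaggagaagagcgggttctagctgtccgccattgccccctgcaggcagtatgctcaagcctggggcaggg
Irx3+7.6: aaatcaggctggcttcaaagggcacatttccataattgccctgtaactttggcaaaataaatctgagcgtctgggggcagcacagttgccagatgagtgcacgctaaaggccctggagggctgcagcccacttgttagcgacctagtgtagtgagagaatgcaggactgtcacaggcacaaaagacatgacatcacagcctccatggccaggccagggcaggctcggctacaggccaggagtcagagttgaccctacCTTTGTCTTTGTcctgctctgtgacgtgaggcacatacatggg
Irx3+225.4: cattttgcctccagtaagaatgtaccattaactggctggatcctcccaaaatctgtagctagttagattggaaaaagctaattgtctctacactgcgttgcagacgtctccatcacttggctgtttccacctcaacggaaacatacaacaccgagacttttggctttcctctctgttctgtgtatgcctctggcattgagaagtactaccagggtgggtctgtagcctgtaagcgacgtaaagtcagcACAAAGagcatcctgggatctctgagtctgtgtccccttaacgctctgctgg
Irx3-28.4: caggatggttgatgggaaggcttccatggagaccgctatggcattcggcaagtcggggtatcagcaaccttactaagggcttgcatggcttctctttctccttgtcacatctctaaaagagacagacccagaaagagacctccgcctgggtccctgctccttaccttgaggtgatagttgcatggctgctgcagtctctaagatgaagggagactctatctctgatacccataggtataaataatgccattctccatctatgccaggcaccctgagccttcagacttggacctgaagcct
Irx3-65.6: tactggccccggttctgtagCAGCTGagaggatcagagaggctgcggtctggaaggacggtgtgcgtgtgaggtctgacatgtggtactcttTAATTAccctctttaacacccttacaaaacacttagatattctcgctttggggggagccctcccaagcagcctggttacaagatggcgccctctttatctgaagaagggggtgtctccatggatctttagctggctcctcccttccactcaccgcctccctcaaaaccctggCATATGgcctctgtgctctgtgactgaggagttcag
Irx3-195.5: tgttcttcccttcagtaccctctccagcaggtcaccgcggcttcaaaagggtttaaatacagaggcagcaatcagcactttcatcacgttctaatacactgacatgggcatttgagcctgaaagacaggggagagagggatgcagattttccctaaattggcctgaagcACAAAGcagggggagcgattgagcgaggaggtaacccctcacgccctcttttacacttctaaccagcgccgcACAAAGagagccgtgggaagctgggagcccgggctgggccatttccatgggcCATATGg
Irx2+84.2: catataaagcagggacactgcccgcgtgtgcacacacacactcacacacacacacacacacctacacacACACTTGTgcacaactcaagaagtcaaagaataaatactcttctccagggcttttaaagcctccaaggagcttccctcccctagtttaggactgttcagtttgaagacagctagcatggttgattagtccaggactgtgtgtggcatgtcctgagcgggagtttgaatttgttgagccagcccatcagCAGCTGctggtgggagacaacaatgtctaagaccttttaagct

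The motifs were searched on both strands in the central 300 bases of every element: TGGGTGGTC (GLI), TGTTTAC (forkhead), TAATTA (homeodomain), ACAAAG (SOX), CAGCTG and CATATG (E-boxes), CACTTGA (NKX2) and ACANNTGT (Iroquois). The homeodomain letters were in 12 of the 76 elements at Irx3/5/6 (15.8%) and in 4.88% at Irx1/2/4, against 7.85% of all elements. Of all intergenic elements, the class of most Iroquois elements, 9.2% held these letters, 11.5% the Iroquois letters and 34.4% the SOX letters. The Iroquois letters were in 7 of 41 at Irx1/2/4 (17.1%) and 4 of 76 at Irx3/5/6 (5.26%), against 10.5% of all elements. CAGCTG was in 17.1% at Irx3/5/6 and 9.76% at Irx1/2/4, against 21.1%, and of the 17 elements that held it 1 had it inside an Iroquois match. The SOX letters were in 32.9% and 26.8%, against 31.1%, forkhead in 5.26% and 2.44%, against 4.96%, CATATG in 2.63% and 2.44%, against 5.22%, and NKX2 in 1.32% and 2.44%, against 4.11%. The GLI letters were in none of the Iroquois windows and in 0.392% of all windows. The median GC content was 48.2% at Irx3/5/6 and 48.3% at Irx1/2/4, against 48.0% of all windows. Of the sequences shown, Irx5+9.2 held 1 CAGCTG, Irx3+7.6 held 2 SOX matches, Irx3+225.4 held 1 SOX match, Irx3-65.6 held both E-boxes and the homeodomain letters, Irx3-195.5 held 2 SOX matches and CATATG, Irx2+84.2 held an Iroquois match and CAGCTG, and Irx3-28.4 held none of the 8. These matches describe letters and were not tested as binding sites.

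At the start sites themselves, accessibility differed little between progenitor types, and the 2 clusters differed in which of their genes stood open. Per kb of element and averaged over all 67 libraries, the element at the TSS held 1235 normalized counts for Irx3+0.4 and 1542 for Irx5-0.8, against 310 for Irx6-0.3, 171 for Irx1+0.9 and 43.5 for Irx4+0.0, and the nearest element of Irx2, Irx2+2.9 in exon 3, held 248. The plot of the elements nearest each TSS shows all 67 libraries.

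**Figure D1:**
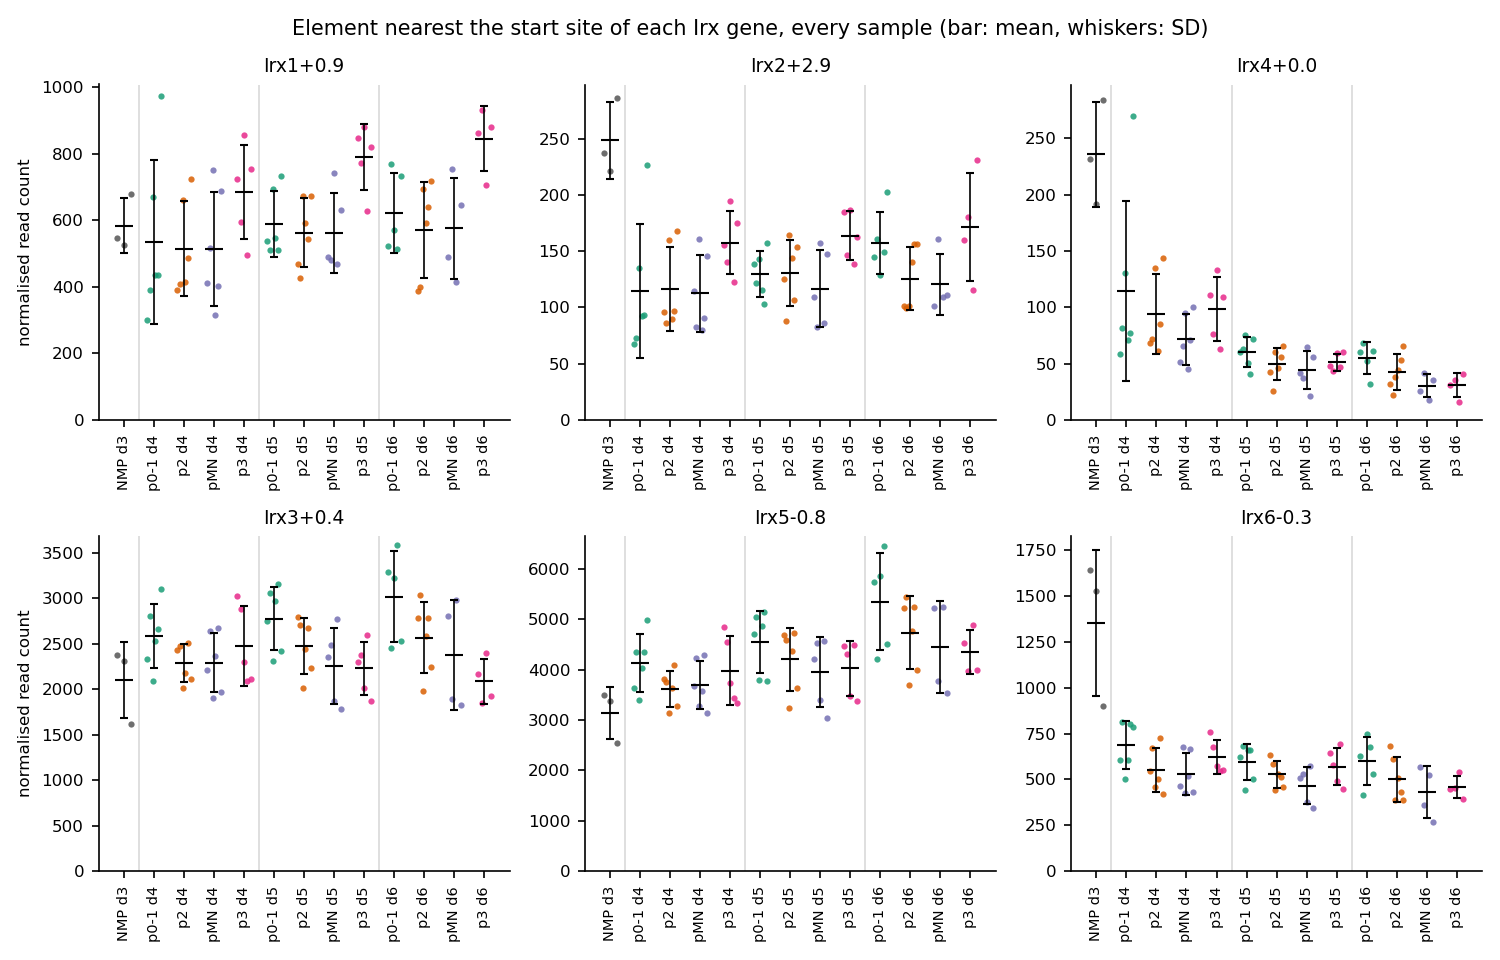
Normalized read counts (vertical axes) of the element nearest the TSS of each Iroquois gene in NMP cells on day 3 and in p0-1, p2, pMN and p3 cells on days 4, 5 and 6. Dots are libraries, bars are group means and whiskers are SD. Irx3+0.4 and Irx5-0.8 had at least 1623 and 2548 counts in every library, while the group means of Irx6-0.3 and Irx4+0.0 were highest in NMP cells.

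Irx3+0.4 had 2375, 2309 and 1623 normalized counts in the NMP libraries. On day 6 it had 3283, 2449, 3226, 3584 and 2525 in p0-1 and 2172, 1852, 2392 and 1926 in p3. The p3 range lay under the p0-1 range, and the difference of p3 from p0-1, p2 and pMN together was small (log2 fold change -0.34, adjusted p = 0.044 by limma), short of a call, which here needs both an adjusted p below 0.01 and more than a 2-fold change. Irx5-0.8 had a mean of 3141 ± 517 in NMP (SD, n = 3), 5348 ± 958 in p0-1 (n = 5) and 4347 ± 443 in p3 (n = 4) on day 6. Over all the comparisons of cell types, days and SAG concentrations, its log2 fold changes stayed between -0.19 and 0.34, and those of Irx3+0.4 between -0.34 and 0.19, and neither was called. Irx1+0.9 behaved alike in size, with log2 fold changes between -0.26 and 0.52 and no call.

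The TSS elements of Irx6 and Irx4 were most open in NMP cells. Irx6-0.3 had 1638, 1524 and 900 normalized counts in NMP and 420 to 811 in the 23 day 4 libraries, with no overlap, and its fall was called (log2 fold change -1.19, adjusted p = 3.45e-07). Irx4+0.0 was under the filter for testing: it had 232, 192 and 284 counts in NMP, and its means on day 6 were 30.1 ± 10.2 in pMN and 31.0 ± 10.6 in p3 (SD, n = 4 each). Irx2+2.9 had 238, 221 and 287 counts in NMP and a mean of 125 over the day 4 conditions, a log2 fold change of -0.99 that fell just short of a call at adjusted p = 4.87e-05. Within the body of Irx1, Irx1+4.3 in exon 2 had 661, 585 and 672 in NMP and 156 to 511 on day 4, and was called lower (log2 fold change -1.17, adjusted p = 2.96e-08). The calls of Irx6-0.3 and Irx1+4.3 were lost when each library was centred on its own median (-0.87 and -0.88), where all elements had a median log2 fold change of -0.22 before centring, and that of Irx6-0.3 was also lost without the libraries numbered 1 (-0.99).

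Many Iroquois elements were called higher on day 4 than in NMP cells. Of the 29 tested elements at Irx3/5/6, 18 were higher on day 4 and 1 was lower, while of the 11 in the Irx1/2/4 cluster 3 were higher and 1 was lower. Together 23 of 40 were called (57.5%), where 46.7% of all tested elements were called in either direction and 32.2% were called higher. The median log2 fold change was 1.55 at Irx3/5/6 and 0.12 at Irx1/2/4, against -0.22 over all elements. Of the elements under the filter, 15 of 30 at Irx1/2/4 and 21 of 47 at Irx3/5/6 were higher in a fit without the filter, and 6 and 7 were lower. The share of all elements called in that fit is not given here for this step, so these counts cannot be read against it. The difference between the clusters was not tested. The other domain factors (Olig1, Olig2, Nkx2-9, Nkx6-1, Nkx6-2, Pax3, Pax6, Pax7, Dbx1 and Dbx2) had 34 elements higher and 5 lower of 66, and the genes that flank or lie between the Iroquois genes had 13 higher and 2 lower of 22.

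Irx3-74.6 was the most accessible distal element of Irx3 per kb. It had 90.9, 14.8 and 52.8 normalized counts in the NMP libraries and 719 to 3032 on day 4, with no overlap, and the rise was a log2 fold change of 5.27 (difference of 5.08 ± 0.21 SE in variance-stabilized values, the log2-like VST scale on which the tests were run, adjusted p = 1.70e-26). Irx3-52.5, inside Irx3os, had 9.70, 2.70 and 3.23 counts in NMP and 200 to 624 on day 4, which was the largest called increase of the cluster (6.50, adjusted p = 3.86e-24). Both were lower in each NMP library than in any day 4 library. Irx6-148.9, midway between Irx5 and Irx6, went from 3.64, 2.70 and 3.23 counts to 82.5 to 226 (5.57, adjusted p = 3.56e-22), and Irx6-3.6, just upstream of Irx6, went from 3.64, 5.40 and 10.8 to 40.1 to 210 (4.25, adjusted p = 1.48e-22), in the same interval in which the TSS element of Irx6 fell.

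The 3 tested elements of the Irx1/2/4 cluster that were higher on day 4 were all distal. Irx1-246.6, the most accessible of them, had 318, 170 and 548 counts in NMP and 1377 to 2637 on day 4 (log2 fold change 2.55, adjusted p = 6.14e-14). Irx1+159.2 had 17.0, 6.74 and 14.0 in NMP and 61.2 to 508 on day 4 (4.05, adjusted p = 1.62e-07). Irx2+84.2, whose sequence above holds an Iroquois match and a CAGCTG E-box, had 0, 0 and 1.08 in NMP and 13.3 to 159 on day 4 (adjusted p = 9.38e-14). It rested on 1 read over the 3 NMP libraries against 1846 over the 23 of day 4. Scaled by the size factors of the libraries, the ratio was 199. Its exact 95% interval of 35.7 to 7876 covers counting error only. Markers of NMP cells fell over the same step, with the element of T (Brachyury) at a mean of 1175 in NMP and 219 to 276 on day 4.

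Among the tested elements, most of those called between p3 and the other types were lower in p3 and lay in the Irx3/5/6 cluster. The elements under the filter, given further on, were called in both directions and in both clusters. The filter used the mean over all 67 libraries, so an element open mainly in p3 could fall under it, as Irx5+117.1 and Irx6+25.7 did. The effect of this on the counts was not tested. On day 4, 5 of the 29 tested elements at Irx3/5/6 were lower in p3 than in p0-1, p2 and pMN together and 0 were higher. On day 5 8 were lower and 1 was higher, and on day 6 9 were lower and 1 was higher. In the Irx1/2/4 cluster 1 of 11 was lower on day 4, the same element (Irx2+84.2) was lower on day 5, and 0 were called on day 6, where 6 had an unadjusted p under 0.05 by limma, and voom on the recovered reads called 0 with 8 under 0.05. Of all tested elements, 9.44% were called on day 4 (7.49% lower in p3), 16.4% on day 5 (12.4% lower) and 20.2% on day 6 (13.8% lower). The share at Irx3/5/6 was 17.2%, 31.0% and 34.5% on the 3 days, and the median log2 fold change of that cluster was -0.33, -0.43 and -0.39, where Irx1/2/4 had 0.26, 0.36 and 0.38 and all elements had 0.01, 0.03 and -0.04. The domain factors had 11, 14 and 21 lower and 2, 4 and 4 higher of 66, and the flanking genes had 5 lower on each day and 1, 3 and 4 higher of 22.

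**Figure D2:**
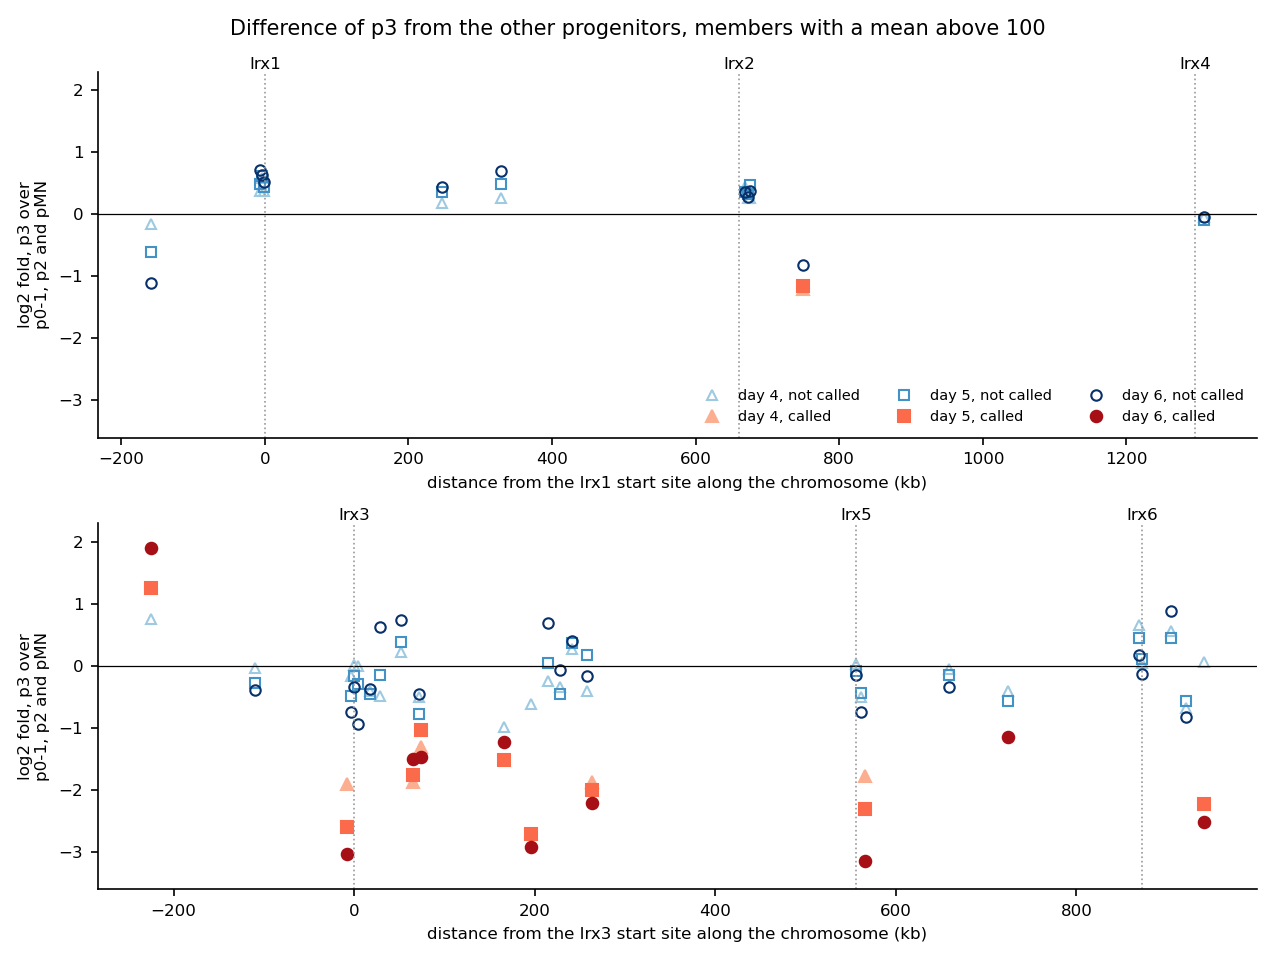
Log2 fold change of p3 over p0-1, p2 and pMN (vertical axis) for the tested elements, placed by their distance in kb from the Irx1 or Irx3 start site (horizontal axis), on days 4, 5 and 6. Filled points were called. The elements called lower in p3 lay on both sides of Irx3, from 7.6 kb downstream to the elements beyond Irx6, among elements that were not called.

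Irx5+9.2 and Irx3+7.6, each a few kb downstream of a start site, had the largest fold changes among the elements called lower in p3 on day 6. Irx5+9.2 had 52.8, 22.4, 43.9 and 26.2 normalized counts in the p3 libraries of day 6, 234, 93.9, 168 and 65.4 in pMN, 230 to 511 in p2 (median 450, n = 6) and 403, 274, 511, 504 and 437 in p0-1. The p3 libraries lay under all 15 others, and the pMN mean of 140 lay between those of p3 (36.3) and of p2 and p0-1 (415 and 426). The log2 fold change of p3 was -3.15 on day 6 (difference of VST values -2.62 ± 0.20 SE, adjusted p = 2.63e-16), after -2.31 on day 5 and -1.77 on day 4. Against pMN alone, the type collected at the same SAG concentrations as p3, it was -1.95 on day 6 (adjusted p = 4.74e-07). NMP cells had 89.7, 101 and 52.8 at this element, a mean of 81.2, and on day 4 the means were 105 ± 29.0 in p3 (SD, n = 5) and 390 ± 75.0 in p0-1 (SD, n = 6).

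Irx3+7.6 began almost closed, with 25.5, 13.5 and 14.0 counts in NMP. On day 6 it had 97.3, 86.5, 119 and 61.2 in p3, 572, 341, 415 and 260 in pMN, 473 to 881 in p2 (median 751) and 1231, 780, 1298, 1329 and 938 in p0-1. The order p0-1, p2, pMN, p3 held for the means on each of the 3 days, although p0-1 and p2 overlapped and so did p2 and pMN. The p3 libraries did not overlap with any other type on day 4, 5 or 6, and the log2 fold change of p3 went from -1.91 on day 4 through -2.60 to -3.03 on day 6 (adjusted p = 8.65e-10, 5.69e-15 and 1.51e-16).

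Irx3-195.5, a distal element that opened late, had 313, 165, 181 and 95.2 counts in p3 on day 6 against 389 to 2725 in the 15 other libraries (-2.92, adjusted p = 2.69e-13). Irx3-74.6 was already open in p3 but less so, with 1321, 763, 1251 and 425 on day 6 against 2053 to 3734 (-1.46, adjusted p = 2.47e-09). Irx6+69.0, beyond Irx6, had 140, 117, 97.0 and 70.9 against 317 to 1123 (-2.52, adjusted p = 7.36e-13). None of these 3 overlapped with the other types on day 6. The other elements called lower in p3 on day 6 were Irx3-263.6 (-2.22), Irx3-65.6 (-1.50), Irx3-165.8 (-1.23) and Irx6-148.9 (-1.14). Of these, the p3 libraries of Irx3-65.6 and Irx6-148.9 overlapped with those of other types. Lower here means less open than in the other types on the same day. Within p3, Irx3-65.6, Irx3-165.8, Irx3-195.5 and Irx6+69.0 were called higher on day 6 than on day 4.

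Irx3+225.4, in the last intron of Fto, was the tested element that was higher in p3. On day 6 it had 130, 278, 176 and 406 normalized counts in p3, 50.2, 39.4, 35.1 and 46.7 in pMN, 44.1 to 98.7 in p2 (median 65.7) and 61.2, 93.2, 90.4, 78.1 and 105 in p0-1. All 4 p3 libraries were above the 15 others. The log2 fold change was 1.90 on day 6 (adjusted p = 6.27e-12) and 1.26 on day 5 (adjusted p = 2.16e-08), and against pMN alone, at the same SAG concentrations, it was 2.53 and 1.65. On day 4, with 111, 112, 189, 172 and 216 in p3, its log2 fold change of 0.76 was under the threshold (adjusted p = 6.14e-04).

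Irx2+84.2 was the called element of the other cluster. On day 4 it had 20.2, 13.3, 38.1, 52.6 and 48.7 counts in p3 against 22.5 to 159 in the other types, which overlapped (-1.21, adjusted p = 0.00324). On day 5 it had 81.6, 84.0, 167, 70.1 and 148 against 88.6 to 417, again with overlap (-1.15, adjusted p = 9.01e-04). The day 4 call was lost without replicate 2 at 100 nM (-1.11, adjusted p = 0.0185) or replicate 1 or 3 at 500 nM (-1.24 and -1.17, adjusted p = 0.0193 and 0.0264) of p3, without the shallow 100 nM p3 condition as a whole (-0.76, adjusted p = 0.463) and by voom (adjusted p = 0.126), and the day 5 call was lost without replicate 2 of p3 at 500 nM (-0.92, adjusted p = 0.0416). Without the 100 nM p3 condition of day 4, an alternative chosen after seeing the data, the calls over both clusters numbered 6 on day 4, 10 on day 5 and 10 on day 6. The floor plate marker elements given above were also higher in p3 than in the other types (Foxa2 1662 ± 486 on day 6, n = 4). So was the element of the mesoderm gene Meox1 on day 6 (856 ± 7.4 against means of 274 to 369). On days 4 and 5, however, the mean of the Meox1 element was highest in p0-1 (297 and 1013, against 283 and 917 in p3). Tbx6, another mesoderm gene, was not higher in p3 on day 6 (693 against 767 to 857). The part of these markers in the Iroquois results was not tested.

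**Figure D3:**
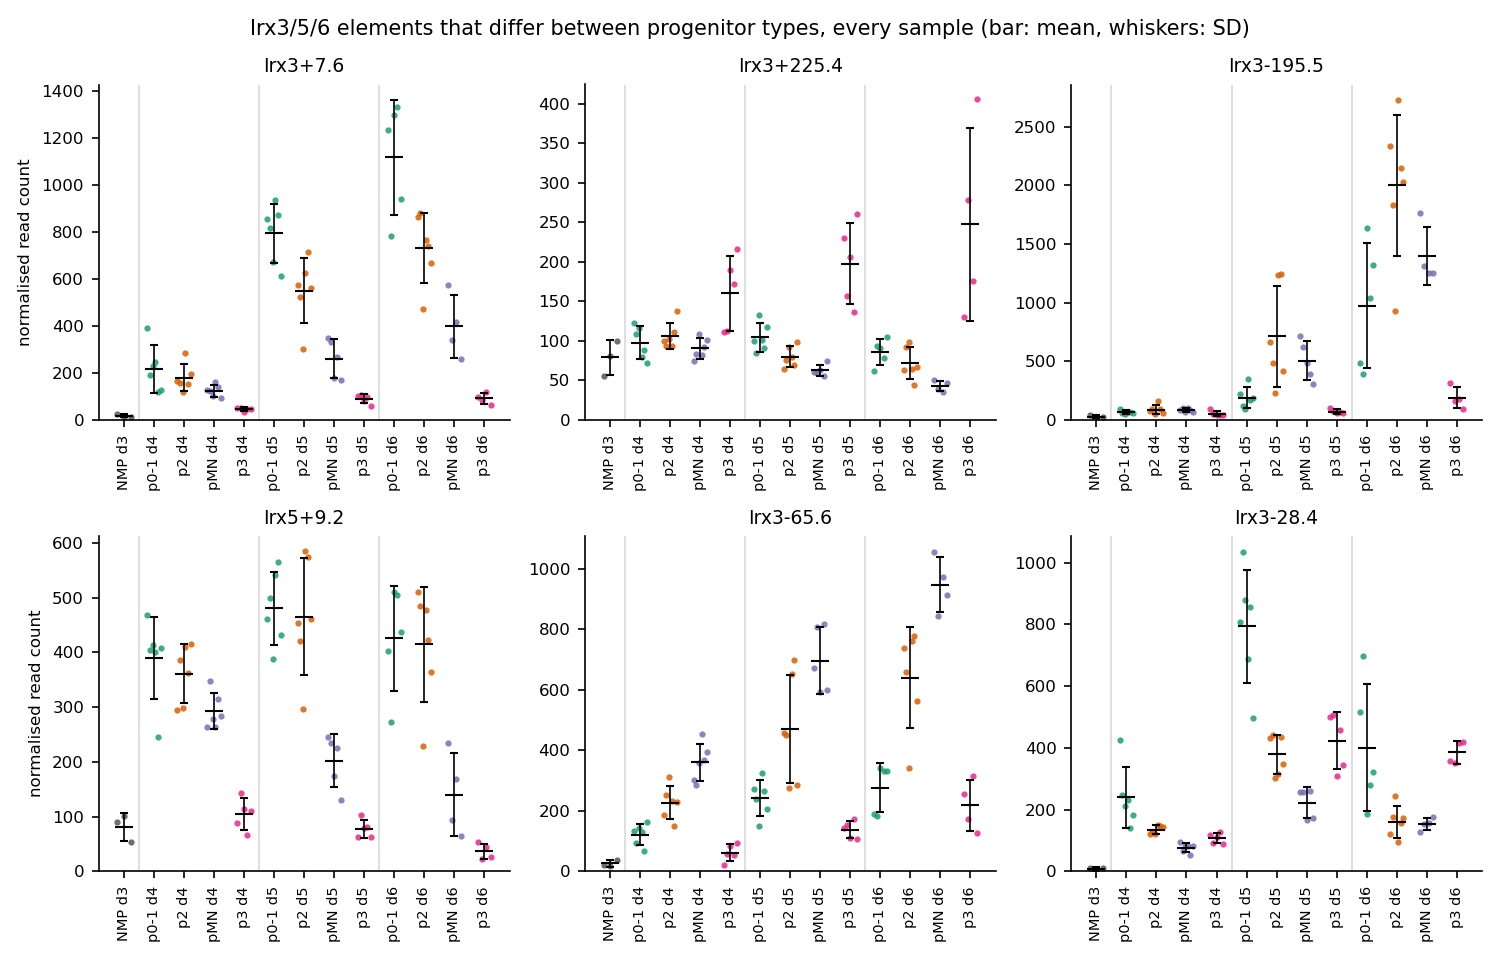
Normalized read counts (vertical axes) of 6 elements of the Irx3/5/6 cluster in NMP cells and in 4 progenitor types on days 4, 5 and 6. Dots are libraries, bars are group means and whiskers are SD. Among the 4 progenitor types of a day, the means of Irx5+9.2 and Irx3+7.6 were lowest in p3, Irx3+225.4 was highest in p3 on days 5 and 6, the mean of Irx3-28.4 was lower in p2 and pMN than in p0-1, and Irx3-65.6 was highest in pMN.

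The boundary between p2 and pMN is where IRX3 and OLIG2 exclude each other, and pMN was compared with p0-1 and p2 together. It had 1 element higher and 1 lower on day 4, 3 lower on day 5, and 1 higher and 3 lower on day 6, all in the Irx3/5/6 cluster. Of all tested elements, 1.72% were called on day 4, 4.26% on day 5 (1.60% lower) and 6.08% on day 6. In the Irx1/2/4 cluster 0 of 11 were called by limma or voom on any of the 3 days, with 2, 1 and 0 at an unadjusted p under 0.05 by both. The median log2 fold change at Irx3/5/6 on day 6 was -0.34, against -0.12 at Irx1/2/4 and -0.04 over all elements. The domain factors were mostly higher, with 9, 14 and 16 higher and 1, 5 and 5 lower of 66. All tested elements also leaned that way, with 464, 845 and 1262 higher and 82, 507 and 669 lower. The list includes Olig2, whose protein defined the pMN gate.

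Irx3-28.4, inside Irx3os, was lower in pMN early. On day 5 it had 259, 257, 165, 261 and 174 counts in pMN, 301 to 442 in p2 (median 390, n = 6), 498 to 1035 in p0-1 (median 832, n = 6) and 501, 507, 310, 458 and 343 in p3. The pMN libraries lay under all others, including p3, and the log2 fold change against p0-1 and p2 was -1.40 (adjusted p = 1.38e-07), after -1.28 on day 4 (adjusted p = 1.44e-06). Irx5+9.2 was called lower on day 5 (-1.26, adjusted p = 1.42e-06) and day 6 (-1.56, adjusted p = 2.52e-08), Irx3+7.6 on day 5 (-1.41, adjusted p = 2.52e-07) and day 6 (-1.20, adjusted p = 1.68e-05), and Irx3-263.6 on day 6 (-1.12).

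Irx3-65.6, also inside Irx3os, went the opposite way. On day 6 it had 1056, 843, 974 and 913 counts in pMN (947 ± 90.4), 340 to 778 in p2 (median 698), 190, 184, 342, 332 and 331 in p0-1, and 256, 172, 316 and 127 in p3. The pMN libraries lay above all others. Its log2 fold change against p0-1 and p2 was 1.07 on day 6 (adjusted p = 4.06e-05) and 1.05 on day 4 (adjusted p = 6.79e-05), close to the threshold of 1: the day 4 call was lost, leaving 1 call, without replicate 1 of p2 at 100 nM (0.98), replicate 2 of p0-1 or p2 at 10 nM (0.99 each) or replicate 1 of pMN at 500 nM (0.996), and the day 6 call without replicate 3 of p2 or replicate 2 of pMN at 100 nM (0.98 and 0.99). It was also higher in p2 than in p0-1.

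Since pMN and p2 were collected together only at 100 nM SAG, the comparison was repeated between those 2 types at 100 nM. It then called 0 Iroquois elements on day 4, 5 or 6, where it called 0.0315%, 0.955% and 0.910% of all elements. Irx5+9.2 kept its direction on day 6 (-1.32, adjusted p = 0.0118), as did Irx3-65.6 (0.72, adjusted p = 0.373), Irx3+7.6 on day 5 (-0.69, adjusted p = 0.306) and Irx3-28.4 on day 4 (-0.60, adjusted p = 1.00). With replicate number as a block within days 5 and 6, where the numbers paired the libraries, Irx1+159.2 was called lower in pMN on day 5 (-1.47, adjusted p = 5.85e-07, against 0.0474 without the block) and on day 6 (-1.43, adjusted p = 0.00367, against 0.521).

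Within the dorsal types, p2 and p0-1 differed at 3 elements of the Irx3/5/6 cluster, and in the Irx1/2/4 cluster limma and voom called 0 of 11 on each day, with 1, 1 and 2 at an unadjusted p under 0.05 by limma. On day 4 0 of 40 elements were called by limma or voom, with 6 at an unadjusted p under 0.05 in each (1.12% of all elements called), and 1 was called without replicate 2 of p2 at 100 nM or without replicate 1 of p0-1 at 10 nM. On day 5 1 was higher and 1 lower in p2 (4.19% of all elements called), and on day 6 2 were higher and 1 lower (6.52% of all). The domain factors had 9, 17 and 19 elements higher in p2 and 1, 3 and 6 lower of 66. All tested elements leaned the same way, with 354, 1189 and 1567 higher and 3, 142 and 503 lower. The list includes Nkx6-1, whose protein separated these 2 types in the sort.

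Irx3-195.5 had 226 to 1243 counts in p2 on day 5 (median 577, n = 6) and 92.4 to 346 in p0-1 (median 175, n = 6), with overlap (log2 fold change 1.91, adjusted p = 1.39e-06), and 933 to 2725 against 389 to 1635 on day 6, again with overlap (1.18, adjusted p = 2.47e-04). Irx3-65.6 was also higher in p2 on day 6 (1.29, adjusted p = 7.11e-05). Irx3-28.4 was lower in p2, with 301 to 442 against 498 to 1035 on day 5 and no overlap (-1.07, adjusted p = 3.60e-05), and with 93.8 to 244 against 185 to 699 and overlap on day 6 (-1.44, adjusted p = 1.41e-06). Along the axis from p0-1 through p2 to pMN, the means of Irx3-28.4 on day 5 were 794, 379 and 223, and those of Irx3-65.6 were 242, 470 and 697.

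The day 5 call of Irx3-28.4 was lost without replicate 3 of p2 at 100 nM or replicate 2 of p0-1 at 10 nM (-0.98 each), the latter leaving 1 call on day 5, and without all libraries numbered 2 there was 1 call on each of days 5 and 6. At 10 nM SAG alone, where both types were collected, 1 element was called on day 5 (Irx3-195.5, with 3.25% of all elements called) and 0 on day 6 (3.34% of all), and Irx3-28.4 had -0.89 and -0.90 (adjusted p = 0.0379 and 0.0308). With the replicate block, Irx1+159.2 was called lower in p2 on day 6 (-2.19, adjusted p = 1.49e-04, against 0.0785).

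From day 4 to day 6 more elements were called higher than lower at the Irx3/5/6 cluster, as among all elements, in p3 and in the other types. In p0-1, p2 and pMN together, 9 of its 29 elements were higher on day 6 and 3 were lower, and at Irx1/2/4 1 was higher and 1 lower of 11. In p3, 8 were higher and 3 lower at Irx3/5/6, and again 1 was higher and 1 lower at Irx1/2/4. Of all tested elements, 22.4% were called in the first comparison (5059 higher and 2041 lower) and 23.1% in p3 (4588 higher and 2731 lower). The median log2 fold change at Irx3/5/6 was 0.40 in p0-1, p2 and pMN and 0.16 in p3, at Irx1/2/4 -0.15 and 0.00, and over all elements 0.24 and 0.17. The domain factors had 15 higher and 1 lower in the other types and 13 higher and 3 lower in p3, and the flanking genes 4 and 3, and 5 and 3.

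**Figure D4:**
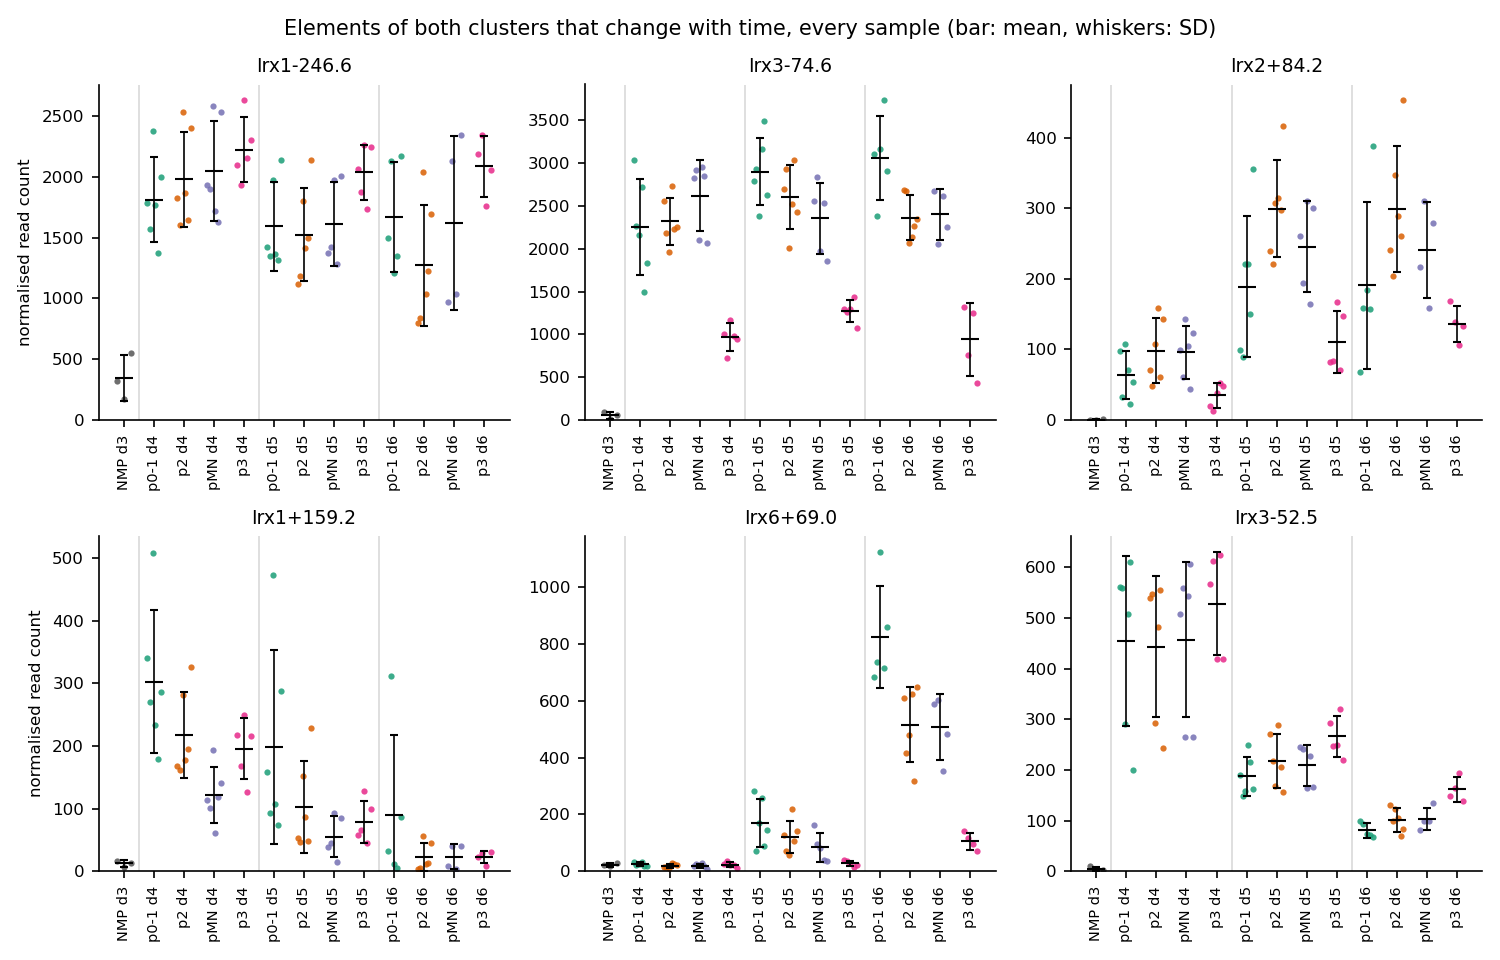
Normalized read counts (vertical axes) of 6 elements that changed with time, in NMP cells and in 4 progenitor types on days 4, 5 and 6. Dots are libraries, bars are group means and whiskers are SD. Irx3-52.5 and Irx1+159.2 peaked on day 4, Irx6+69.0 and Irx2+84.2 were higher on day 6 than on day 4, and Irx3-74.6 and Irx1-246.6 were open from day 4 on.

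Irx6+69.0 was near its NMP level on day 4 in every type (means of 19.7 to 25.1, against 22.8 ± 5.8 in NMP) and rose only afterwards. On day 6 it had 682, 736, 1123, 716 and 860 counts in p0-1, 317 to 647 in p2 (median 544) and 587, 603, 352 and 483 in pMN. The log2 fold change from day 4 was 4.82 in these types (adjusted p = 1.61e-30) and 2.25 in p3 (adjusted p = 1.30e-07). As with all tests between days, including NMP to day 4, these p-values took libraries as independent. Same-numbered libraries of a day deviated together, so the p-values can be too small. Irx3-195.5 rose alongside, from a mean of 79.6 to 1427 over the conditions of p0-1, p2 and pMN (4.16, adjusted p = 1.11e-26), and Irx3-257.6 rose from 132 to 899 in p3 (2.77, adjusted p = 1.01e-12) and from 175 to 1000 in the others (2.51).

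Irx3-52.5 was the transient element. After its rise to a mean of 443 to 528 on day 4 it had 66.8 to 98.9 counts in p0-1 on day 6, 69.0 to 131 in p2, 81.6, 99.5, 100.2 and 134 in pMN, and 148, 165, 194 and 139 in p3. The fall was called in p0-1, p2 and pMN (log2 fold change -2.23, adjusted p = 1.91e-18) and in p3 (-1.71, adjusted p = 9.24e-07), with no overlap between days. Irx6-148.9 fell likewise (-1.11 and -1.84), as did Irx3-214.8 in p0-1, p2 and pMN (-1.55).

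At Irx1/2/4, Irx1+159.2 fell and Irx2+84.2 rose. Irx1+159.2 had means of 122 to 303 on day 4 and of 22.6 to 89.6 on day 6, with a log2 fold change of -2.11 in p0-1, p2 and pMN (adjusted p = 8.54e-11) and -3.06 in p3 (adjusted p = 7.76e-05). Its libraries differed by replicate: in 24 of the 24 conditions of days 4 to 6 with a replicate 3, that replicate was the highest, and on day 6 the medians were 11.4, 8.65 and 43.5 for replicates 1, 2 and 3. Without replicate 3 of p0-1 at 0 nM on day 6, which had 311 counts, the change in p0-1, p2 and pMN was -3.02, and without all libraries numbered 2 it was -1.50. Irx2+84.2 rose by a log2 fold change of 1.48 in p0-1, p2 and pMN (adjusted p = 2.35e-09) and 1.87 in p3 (adjusted p = 4.97e-05), the latter not called by voom (adjusted p = 0.0185) or without the 100 nM p3 condition of day 4 (1.43, adjusted p = 0.0181). Elements of the neuronal genes Tubb3 and Elavl3 also had higher means on day 6 (1233 to 2135 and 844 to 1299 over the 4 types) than on day 4 (776 to 865 and 505 to 582). They were already open in NMP cells, with means of 1722 and 1160, and their part in the changes with time was not tested.

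The change from day 4 to day 6 differed between p3 and the other types at 6 elements, all in the Irx3/5/6 cluster, where 11.6% of all elements were called. Irx6+69.0 rose less in p3 (difference of log2 fold changes -2.58, adjusted p = 1.81e-08), as did Irx3-195.5 (-2.31, adjusted p = 9.87e-07) and Irx3+7.6 (-1.12, adjusted p = 9.15e-04). Irx5+9.2 fell in p3, from 66.8 to 144 on day 4 to 22.4 to 52.8 on day 6 (-1.49), with a difference of -1.38 (adjusted p = 0.00487). Irx3-28.4 rose in p3 (1.85) and was not called in the other types, with a difference of 1.12 (adjusted p = 3.18e-04), and Irx3+225.4 had a difference of 1.15 (adjusted p = 5.97e-04).

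These 6 calls were 2 higher and 4 lower, and 3 and 3 when libraries were centred on their medians. There were 3 without replicate 3 of p3 at 500 nM on day 6, also 3 by voom and 3 with libraries averaged over SAG concentrations. Irx3+225.4 lost its call without that library (0.77) and without replicate 3 of p3 at 100 nM on day 6 (0.91), and had 0.92 (adjusted p = 0.0507) without the 100 nM p3 condition of day 4.

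**Figure D5:**
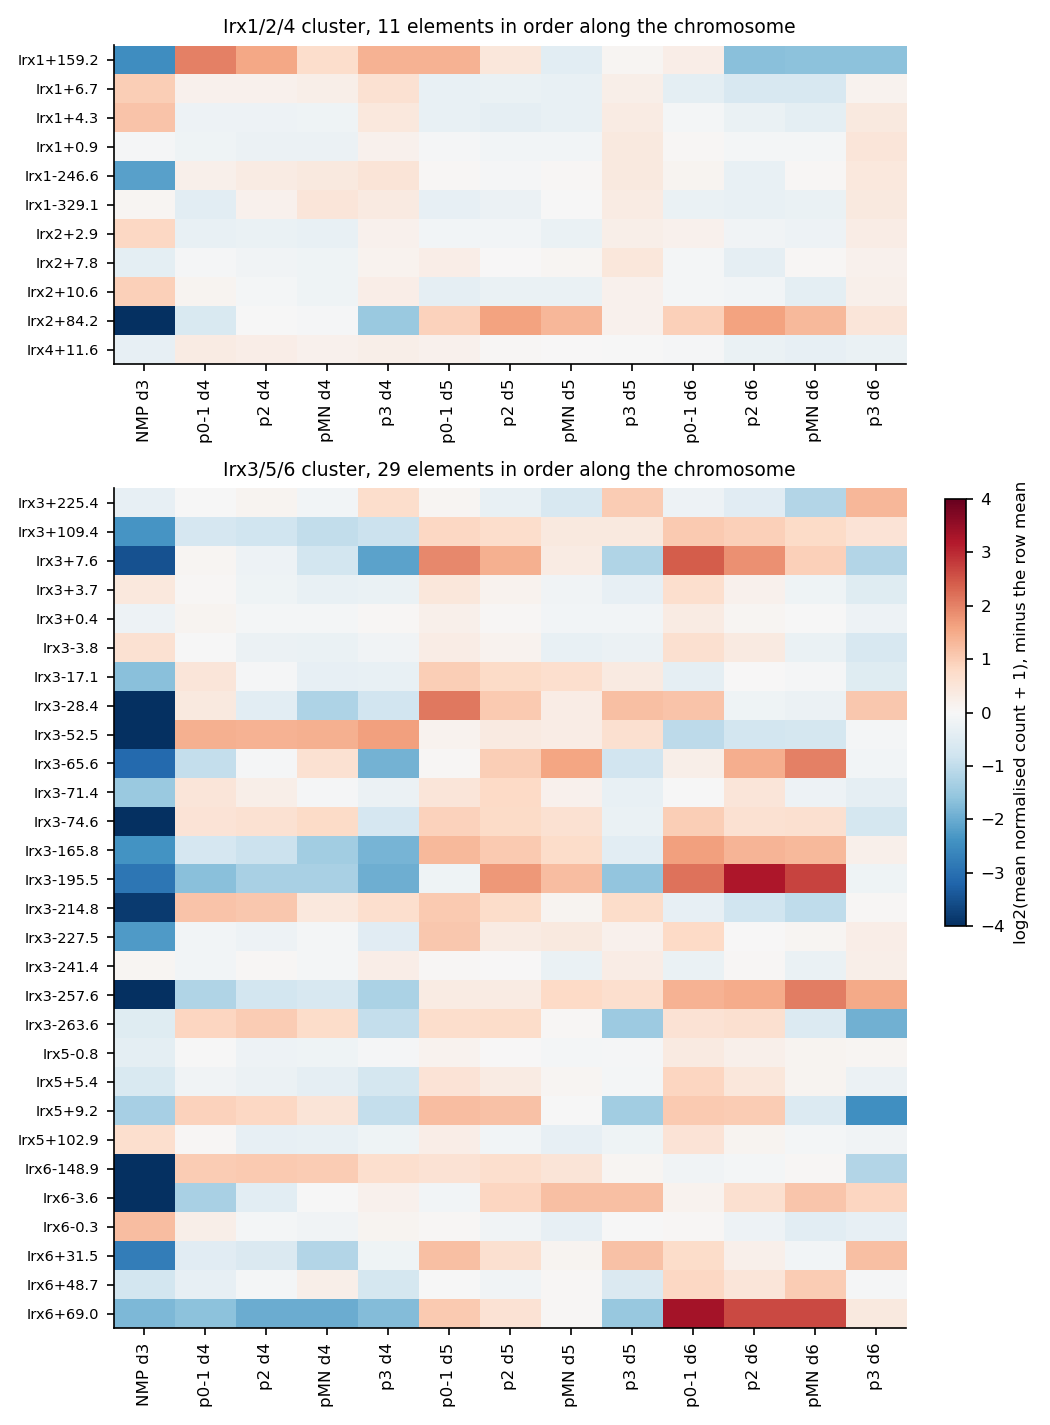
Colours give log2(mean normalized count + 1) minus the mean of the row for the 40 tested elements (rows, by gene and distance in kb) in the 13 groups of type and day (columns). Colours are clipped at the ends of the scale. Many Irx3/5/6 rows differ between NMP and day 4, between day 4 and day 6, and between p3 and the other types. The rows at the start sites of Irx3 and Irx5 are near 0 throughout.

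Between SAG concentrations within a type, 0 of the 40 tested Iroquois elements were called without the replicate block. Between 0 and 10 nM in p0-1, 0 of 40 were called by limma or voom (0.432% of all elements), with 6 and 5 at an unadjusted p under 0.05. Between 10 and 100 nM in p2 it was 0 of 40 by both (0.186% of all), with 3 at an unadjusted p under 0.05 in each. Between 100 and 500 nM it was 0 by both in pMN and in p3 (0% of all in each), with 1 and 2 at an unadjusted p under 0.05 by limma and 0 by voom. The log2 fold changes of the 40 elements ran from -0.89 to 1.33 in p0-1, from -0.59 to 0.37 in p2, from -0.62 to 0.10 in pMN and from -0.69 to 0.34 in p3. The largest was Irx3-195.5 in p0-1, an element chosen here after its values were seen: on day 6 it had 484 and 389 counts at 0 nM and 1635, 1041 and 1322 at 10 nM, with no overlap. Over days 4 to 6 its log2 fold change was 1.33 (adjusted p = 0.0298), which was called with replicate number as a block within each day (adjusted p = 1.98e-04). Of the 77 elements under the filter, 1 was called in p0-1 in a fit without the filter (Irx5+53.6, with means of 46.7 at 0 nM and 12.8 at 10 nM, adjusted p = 2.23e-04) and 1 in p2 (Irx1+405.0, 180 at 10 nM and 80.4 at 100 nM, adjusted p = 0.00136). The share of all elements called in that fit is not given here for SAG.

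The 77 elements under the filter are described with values from a fit without the filter, and those named were chosen after their values were seen. In that fit, 33.0% of all 111638 elements were called between p3 and the other types on day 6. This share includes the elements above the filter, of which 20.2% were called in the main fit. It is thus not the share of elements under the filter, which is not given here. Among the 77, 17 were higher in p3 on day 6 (8 at Irx1/2/4 and 9 at Irx3/5/6) and 16 were lower (3 and 13). Irx5+117.1 had 165, 276, 174 and 391 counts in p3 and means of 13.7 to 24.2 in the other types (log2 fold change 3.78, adjusted p = 9.32e-18). Irx6+25.7 had 163, 161, 122 and 239 in p3 and means of 9.37 to 13.4 in the others (3.85, adjusted p = 1.97e-19). Both were nearly closed in NMP cells, with 3.64 to 6.74 and 6.74 to 8.62 counts.

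Irx1+405.0 showed the converse pattern far downstream of Irx1. It had 13.2, 11.2, 9.24 and 10.7 counts in p3 on day 6, 115, 113, 56.1 and 61.9 in pMN, 127 to 431 in p2 (median 268) and 76.5, 152, 187, 120 and 325 in p0-1. The p3 libraries lay under all others (-3.98, adjusted p = 3.29e-17), and the element opened with time, from a mean of 12.4 on day 4 to 174 on day 6 over the conditions of p0-1, p2 and pMN. Of the 11 elements under the filter that were called at Irx1/2/4, 8 were higher in p3, such as Irx1-324.8 (292 against 107, log2 fold change 1.45).

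Summed over all of a gene's elements and taken over the 25 condition means, accessibility correlated positively among the genes of the Irx3/5/6 cluster and negatively or near 0 among those of the Irx1/2/4 cluster. Pearson's r of the log2 sums was 0.82 between Irx3 and Irx5, 0.77 between Irx5 and Irx6 and 0.58 between Irx3 and Irx6. It was -0.03 between Irx1 and Irx2, -0.42 between Irx1 and Irx4 and -0.36 between Irx2 and Irx4, while Irx2 reached 0.69 with Irx6 of the other cluster. These values describe the 25 conditions, which share libraries' depth and day, and carry no p-value. Among 17491 genes, those most like Irx3 were 1700010B08Rik (0.972), 1700028M03Rik (0.970) and Chic2 (0.968), with Irx5 at rank 541 and Irx6 at rank 2320, and those most like Irx1 were 1700100L14Rik (0.918), Ankrd55 (0.917) and Gpr17 (0.896).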

How the data were processed

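Accessibility was measured by CaTS-ATAC in 67 libraries of 25 conditions, 17 with 3 replicates and 8 with 2. Reads were processed by the authors with the nf-core ATAC-seq pipeline on mm10: peaks were called with MACS, merged into consensus peaks found in at least 2 replicates, counted per library and annotated with HOMER. The authors deposited log2-like variance-stabilized (VST) values, made by the authors with DESeq2, per element and library, so that an element exists here only where their peak caller found one. The transform was inverted to normalized counts. These came out as whole reads for 100% of values below 1000 reads (tolerance 0.01 reads), which also gave each library's depth.

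Differences were tested with limma 3.58.1 in R 4.3.3 on VST values, with one coefficient per condition, all 67 libraries in the fit, a variance trend and p-values adjusted by Benjamini-Hochberg for the 31744 elements whose mean exceeded 100 normalized counts. A call needed both an adjusted p below 0.01 and more than a 2-fold change between the means of condition means of normalized counts. For the difference between changes with time the limit was 1 on the log2 scale. Sums per gene were taken as log2(sum + 1). Group errors are SD over libraries, and the number of reads limits the precision of low elements. Python 3.11.15 with pandas 2.3.3, numpy 2.4.6, scipy 1.17.1 and matplotlib 3.10.9 was used for the other steps, and the fit was tested on simulated data.

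Named elements were the one nearest each TSS, the highest mean per kb outside promoters for each gene, the largest called increase and decrease per cluster and comparison, and the genes most like Irx1 and Irx3. The members and the lists of domain factors, flanking genes and markers were chosen with earlier results of these data known, and a marker of the list is not reported here. The paper describes sorting the main cell types of each SAG concentration so that types from the same dish could be compared. Libraries of different types at 1 concentration can thus share a dish. Whether libraries with the same replicate number came from 1 dish or 1 differentiation is not given in the sources used here. The main fit did not pair them. The numbers in the sample titles paired the libraries on days 5 and 6. There, all 71 and all 59 pairs of same-numbered libraries deviated from their condition means with a correlation above 0.1 (medians 0.569 and 0.565). On day 4 the numbers paired most libraries but not all, with 69 of 77 pairs above 0.1 (median 0.618). Same-numbered libraries of a day were thus not fully independent. The p-values took them as independent, and those between days can be too small. Alternatives covered the filter, threshold, centring, test, replicate block, SAG concentrations and left-out libraries.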

Additional observations from a re-analysis of the deposited data

Results flagged for a closer look

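In 9 of the 276 groups of 4 to 6 libraries examined for the named elements, 1 library lay far from the others, where chance flags about 1 in 20 groups. At Irx2+2.9, replicate 3 of pMN at 100 nM on day 6 had 160.6 normalized counts against 101 to 111 in the other pMN libraries. Irx4+0.0 had 269.9 in replicate 3 of p0-1 at 10 nM on day 4 against 58.8 to 130, and Irx4+5.1 had 26.49 in replicate 3 of p2 at 10 nM on day 5 against 17.2 to 19.9. Irx5+9.2 had 245.7 in replicate 2 of p0-1 at 10 nM on day 4, the one low value among these, against 400.4 to 468. Irx3-195.5 had 90.84 in replicate 1 of p3 at 100 nM on day 4 against 39.7 to 53.1, and 1768 in replicate 2 of pMN at 100 nM on day 6 against 1256 to 1310. Irx3-28.4 had 425.9 in replicate 1 of p0-1 at 0 nM on day 4 against 142 to 248. Irx1+159.2 had 311.3 in replicate 3 of p0-1 at 0 nM on day 6 against 5.83 to 87.1, and Irx6-148.9 had 142.6 in replicate 1 of pMN at 100 nM on day 5 against 103 to 106.

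For 6 elements the change from day 4 to day 6 differed between p3 and the other types by limma's test of the difference. Irx3+225.4 had a log2 fold change of 0.58 in p3 and -0.57 in the others, a difference of 1.15, and was thus the one of the 6 with opposite signs. Irx3-28.4 had 1.85 and 0.73, a difference of 1.12. Irx3+7.6 had 0.98 and 2.10, a difference of -1.12, and Irx3-195.5 had 1.86 and 4.16, a difference of -2.31. Irx5+9.2 had -1.49 and -0.11, a difference of -1.38, and Irx6+69.0 had 2.25 and 4.82, a difference of -2.58.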

How the results depend on the processing

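Leaving out 1 library or 1 replicate number moved 13 of 1207 counts of called elements by more than 1.5 times, and the other alternatives moved 42 of 243. The counts ran over the left-out libraries from 20 to 25 for NMP to day 4, from 5 to 7, 9 to 10 and 7 to 12 for p3 on days 4, 5 and 6, from 1 to 2, 3 to 4 and 3 to 5 for pMN, from 0 to 1, 1 to 3 and 1 to 4 for p2, from 12 to 14 and 10 to 15 for day 4 to 6 in the other types and in p3, from 3 to 8 for the difference, and stayed at 0 for SAG. With an absolute log2 fold change above 2 the counts were 14 for NMP to day 4, 0, 5 and 5 for p3, 0 on each day for pMN, 0 on days 5 and 6 for p2, 7 and 4 for day 4 to 6, and 2 for the difference. Without the filter they were 73 for NMP to day 4, 18, 33 and 43 for p3, 8 and 15 for pMN on days 5 and 6, 1, 8 and 10 for p2, 48 and 49 for day 4 to 6, 24 for the difference, and 1 each for SAG in p0-1 and p2. For these counts without the filter, the share of all elements called is given only for p3 on day 6 (33.0%), so the others cannot be read against it. Filtering on the samples compared gave 7 for pMN on day 6 and 1 for SAG in p2, and taking all elements between the outermost members gave 10 and 17 for p3 on days 4 and 6. Averaging over SAG gave 1 and 1 for p2 on days 5 and 6 and 3 for the difference, and voom gave 3 for the difference. At the same SAG concentration only, pMN had 0 on each day and p2 had 1 on day 5 and 0 on day 6. Without p3 at 100 nM on day 4, an alternative chosen after seeing the data, the counts were 25 for NMP to day 4, 12 for day 4 to 6 in p3 and 4 for the difference. The cause of these shifts was not tested. The shares of all elements called at the same SAG concentration are given with the results. For the other alternatives in this paragraph they are not given here, so those counts cannot be read against them.

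With replicate number as a block, in all 3 versions, the count for SAG 0 to 10 nM in p0-1 was 1. Within day 4, where the numbers did not pair all libraries, Irx1+159.2 was called lower in pMN under the block (-1.10, adjusted p = 9.84e-06, against 0.0974). The block changed no call of a tested Iroquois element other than these and those given with the results.

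Directions turned only at elements near 0, none of them called: Irx1+0.9 from NMP to day 4 (-0.06) had 0.22 with centring, 0.061 without NMP replicate 3 and 0.063 without replicate 1, the left-out libraries giving -0.25 to 0.063. Irx1+0.9 in pMN on day 6 (-0.056) had 0.33 at the same SAG and 0.0058 to 0.100 without 1 of 4 libraries or without replicate 2. Irx2+2.9 in pMN on day 6 (-0.23) had 0.38 and Irx6-0.3 in p3 on day 6 (-0.14) had 0.095 at the same SAG. Irx2+2.9 from NMP to day 4 was called (-1.02 to -1.20) in 12 of the left-out settings. Depth limits elements with few reads, such as Irx2+84.2, which had no read in NMP cells without replicate 3, so that no fold change could be given there.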
